A study of Mus musculus with 12 samples.

Results

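The genes described here encode the activating receptor NCR1, receptors of the DNAM family and the adaptors through which such receptors signal. The set comprised the 10 mouse genes Ncr1, Tyrobp, Hcst, Fcer1g, Fcgr3, Cd247, Cd226, Cd96, Crtam and Sh2d1b1, taken by symbol from a count table of 50643 genes, and all 10 passed the filter on low counts that left 16694 genes for testing. RNA was sequenced from natural killer (NK) cells of C57BL/6 mouse spleen, prepared by negative selection, in which antibodies take out other cells and leave the NK cells untouched. The 12 libraries formed 4 groups of 3: Mirc11-/- (knockout, KO) challenged with Listeria, KO unchallenged, wild-type (WT) challenged with Listeria, and WT unchallenged. The Mirc11 locus gives rise to the microRNAs miR-24-2, miR-23a and miR-27a, and Listeria is a bacterium that grows inside cells. The series title names ubiquitin modifiers and TRAF6-dependent signalling as the matter under study. The sources used here give no dose, route or time of the challenge, no age, no sex and no cell type in which the deletion is made. The submitters call the libraries biological replicates and do not say that each came from its own animal, so p-values may measure less than the spread between animals. Each title gives 2 replicate numbers, which differ for unchallenged libraries, and the leading one is used here.

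NK cells read the surface of other cells through receptors with little or no signalling tail of their own. NCR1 (NKp46) relies on the adaptor chains FcR gamma, encoded by Fcer1g, and CD3 zeta, encoded by Cd247. The antibody receptor CD16 relies on FcR gamma, while many lectin-like receptors rely on DAP12, encoded by Tyrobp. These adaptors carry ITAM motifs that recruit SYK-family kinases when phosphorylated, whereas DAP10, encoded by Hcst, serves the receptor NKG2D and recruits phosphoinositide 3-kinase. CD226 (DNAM-1), CD96 and CRTAM are immunoglobulin-like receptors of nectins and nectin-like molecules, and EAT-2, encoded by Sh2d1b1, is a small SH2 adaptor that binds the tails of SLAM-family receptors in NK cells.

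Levels are given as CPM, the counts of a gene divided by the total of its library and scaled to the usual constant. Changes are on the log2 scale, each with its standard error, from edgeR's quasi-likelihood test with TMM scaling. A gene was called, that is, said to have risen or fallen, at a Benjamini-Hochberg adjusted p below 0.05 over all 16694 genes. Library totals were 17624530 to 23665679 counts, so that 1 count was worth 0.0423 to 0.0567 CPM. Mir23a, Mir27a and Mir24-2 had 0 counts in all 12 libraries, including WT, and so checked nothing about the genotype. Sex-linked transcripts did not follow the labels evenly. All 3 challenged KO libraries held both Xist, the RNA of the inactive X chromosome, at 526 to 1027 CPM and the 4 Y-linked transcripts Ddx3y, Kdm5d, Uty and Eif2s3y, summing to 121.5 to 219.6 CPM. Unchallenged KO libraries held Xist at no more than 1.08 CPM with a Y-linked sum of 283.6 to 360.7 CPM, and challenged WT libraries held Xist at 1154 to 1464 CPM with a Y-linked sum of no more than 1.69 CPM. Unchallenged WT replicate 4 carried Xist at 1198 CPM together with a Y-linked sum of 117 CPM. In challenged KO replicate 3, the flanking transcript Gm26532, which was chosen after its values were seen, stood at 2.70 CPM, inside the WT range of 2.34 to 4.88 CPM and above its levels of 0.114 to 0.984 CPM in the other 5 KO libraries. Genotype and sex-linked transcripts cannot be told apart in this design. Within KO, challenge and sex-linked transcripts cannot be told apart either, since Xist separated all challenged from all unchallenged KO libraries.

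The microRNAs of the deleted cluster are shown because their seeds (bases 2 to 8, in capitals) define the sites searched in the 10 genes. The mature sequences are from RefSeq (GRCm38.p6, plus strand of chromosome 8), and no pair of them shares a seed.
mmu-miR-23a-3p (chr8:84208563-84208583): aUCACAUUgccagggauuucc
mmu-miR-27a-3p (chr8:84208727-84208747): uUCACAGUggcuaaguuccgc
mmu-miR-24-3p (chr8:84208875-84208896): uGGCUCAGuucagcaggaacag

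Sites complementary to a whole seed (7 bases) were found in the longest annotated 3' UTR of 4 of the 10 genes, against 40.6% of 13486 genes searched the same way. Ncr1 held 1 site each for miR-23a-3p and miR-27a-3p, Crtam held 2 for miR-27a-3p and 1 for miR-24-3p, and Sh2d1b1 and Cd226 held 1 each for miR-23a-3p. The sites of Ncr1, Crtam and Sh2d1b1 are printed 5' to 3' on the transcript strand (GENCODE annotation of GRCm38), with the 7 bases that pair with the seed in capitals. A match of letters is a description and does not show that a microRNA acts there.
Ncr1, miR-23a-3p (chr7:4344918-4344924, plus strand): ataacttcgttccAATGTGAtggccatg
Ncr1, miR-27a-3p (chr7:4344796-4344802, plus strand): cattctaaaggacACTGTGAgaggaagc
Crtam, miR-27a-3p (chr9:40973441-40973447, minus strand): aaggatcgtaagtACTGTGAcatgaaaa
Crtam, miR-27a-3p (chr9:40970190-40970196, minus strand): aaagaggaagtgaACTGTGAatcctgca
Crtam, miR-24-3p (chr9:40970360-40970366, minus strand): gtggagaaaagccCTGAGCCagagttgt
Sh2d1b1, miR-23a-3p (chr1:170285796-170285802, plus strand): ctgccttcaggtaAATGTGAttaaaata

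RefSeq promoter windows, 250 bases before to 50 after the start of the gene (GRCm38.p6), were matched for 7 of the 10 genes and searched for TGTGGT and GTGTGA on both strands. These are core letters bound by RUNX factors and by T-box factors, families that include regulators of NK cell genes. Of 32851 windows, 16.8% held TGTGGT and 14.5% held GTGTGA, and a window could count for both. Ncr1 held TGTGGT at 2 places, 176 and 41 bases before the start, and GTGTGA at 80 bases before it. Hcst held neither. Fcer1g held TGTGGT at 1 place, 9 bases after the start. Cd96 held TGTGGT at 2 places, Sh2d1b1 held both motifs at 1 place each, and Fcgr3 and Cd247 held neither. The Fcgr3 window (chr1:171059354-171059653, minus strand) lies within the gene span given below, chr1:171051174-171064935. It thus covers a start inside that span, and the start at the upper end of the span was not searched. The windows of Ncr1 and Hcst, the genes that fell most in WT, and of Fcer1g, which fell least, are shown with motifs on either strand in capitals.
Ncr1 (chr7:4337465-4337764, plus strand): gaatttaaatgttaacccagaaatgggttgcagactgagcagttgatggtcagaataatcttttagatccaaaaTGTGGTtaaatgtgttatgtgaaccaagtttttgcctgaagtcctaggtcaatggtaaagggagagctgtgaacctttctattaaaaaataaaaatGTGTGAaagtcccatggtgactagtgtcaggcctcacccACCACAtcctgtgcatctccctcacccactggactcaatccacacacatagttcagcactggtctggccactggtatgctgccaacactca
Hcst (chr7:30419805-30420104, minus strand): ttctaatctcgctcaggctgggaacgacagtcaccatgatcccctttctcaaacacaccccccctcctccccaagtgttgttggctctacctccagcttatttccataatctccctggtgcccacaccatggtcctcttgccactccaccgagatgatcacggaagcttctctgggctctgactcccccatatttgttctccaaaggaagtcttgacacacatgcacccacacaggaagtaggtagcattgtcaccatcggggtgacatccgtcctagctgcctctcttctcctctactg
Fcer1g (chr1:171234300-171234599, minus strand): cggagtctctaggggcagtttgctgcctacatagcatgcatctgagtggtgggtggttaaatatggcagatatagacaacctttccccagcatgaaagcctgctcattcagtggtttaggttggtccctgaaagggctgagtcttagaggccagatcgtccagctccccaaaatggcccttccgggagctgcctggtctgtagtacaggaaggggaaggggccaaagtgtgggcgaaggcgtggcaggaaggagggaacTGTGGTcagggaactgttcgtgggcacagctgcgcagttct

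Listeria challenge lowered most of these transcripts in WT and fewer of them in KO. In WT, 9 of the 10 genes fell and 1, Fcgr3, rose, where 63.4% of all tested genes were called (30.9% lower), and none of the 10 overlapped between challenged and unchallenged libraries (70.3% of all genes did not overlap, 30.1% higher and 40.2% lower). In KO, 6 of the 10 fell and the other 4 did not pass, where 27.0% of all tested genes were called (11.5% lower), and 7 did not overlap (39.3% of all genes). The KO count was 3 without challenged KO replicate 2 and 4 without unchallenged KO replicate 4. The 4 that did not pass in KO were Fcgr3, Cd226, Cd96 and Crtam. The median change of the 10 genes was -0.26 in KO and -0.85 in WT, against -0.01 over all tested genes in each. Fewer NK cells in a preparation and less RNA of a gene per NK cell cannot be told apart in such libraries. The summed CPM of 15 NK cell markers moved the same way as most of these genes, with 8135 to 8591 CPM in challenged KO and 11390.2 to 11566 CPM in unchallenged KO libraries, and with 5806 to 5903 CPM in challenged WT and 10897 to 12148 CPM in unchallenged WT libraries. The markers did not all move together: 13 of the 15 fell in KO and the other 2 did not pass, while in WT 13 fell, from Il2rb at -0.46 to Klrb1c at -2.60, Gzma at 0.03 did not pass and Prf1 rose by 0.60 (edgeR adjusted p = 1.85e-05). Markers of other cells moved as well. Erythroid markers summed to 20008 to 25050 CPM in challenged KO and 36799 to 41389.8 CPM in unchallenged KO libraries, against 1741 to 2323 CPM in challenged WT and 11683 to 13659.6 CPM in unchallenged WT libraries. Summed platelet markers averaged 234 ± 25.3 CPM in challenged KO and 183 ± 10.4 CPM in unchallenged KO, against 166 ± 15.5 CPM in challenged WT and 453 ± 69.4 CPM in unchallenged WT libraries (SD, n = 3 each). Summed B cell markers averaged 1721 ± 47.7 CPM in challenged KO and 1204 ± 18.7 CPM in unchallenged KO, against 1952 ± 42.7 CPM in challenged WT and 1733 ± 114 CPM in unchallenged WT libraries (SD, n = 3 each). The part of these in the results below was not tested.

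Fewer of the genes differed between the genotypes before challenge than after it. Without challenge, 1 of the 10 genes was higher and 2 were lower in KO than in WT, where 11.7% of all tested genes were called (6.64% higher, 5.07% lower). This count of 3 was 1 without unchallenged KO replicate 3 or 4 or unchallenged WT replicate 2 or 3, each left out in turn. The 7 that did not pass included Hcst at 0.11 ± 0.17, Fcer1g at -0.01 ± 0.07, Cd247 at -0.12 ± 0.06, Cd226 at -0.23 ± 0.12 and Sh2d1b1 at -0.14 ± 0.06, with edgeR adjusted p of 0.198 to 0.949. After challenge, 8 were higher in KO, 1 was lower and 1 did not pass, where 48.7% of all tested genes were called (22.7% higher, 25.9% lower). The groups did not overlap for 5 of the 10 genes without challenge (32.6% of all genes) and for 9 after it (53.6%, with 31.4% higher and 22.3% lower). The difference between the challenge responses, KO response minus WT response, was called positive for 7 genes and negative for 1, where 35.2% of all tested genes were called (16.7% higher, 18.5% lower). Its median over the 10 genes was 0.64, against 0.00 over all genes. Without unchallenged WT replicate 4 and challenged KO replicate 3, the numbers called were 6 for challenge in KO, 9 for challenge in WT, 3 and 7 between genotypes without and with challenge, and 7 for the difference between responses. The 3 called there without challenge included Tyrobp (0.30) and no longer Crtam (-0.31). The challenge comparisons share libraries with the genotype comparisons, so the 4 sets of changes are not independent of each other.

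**Figure D1:**
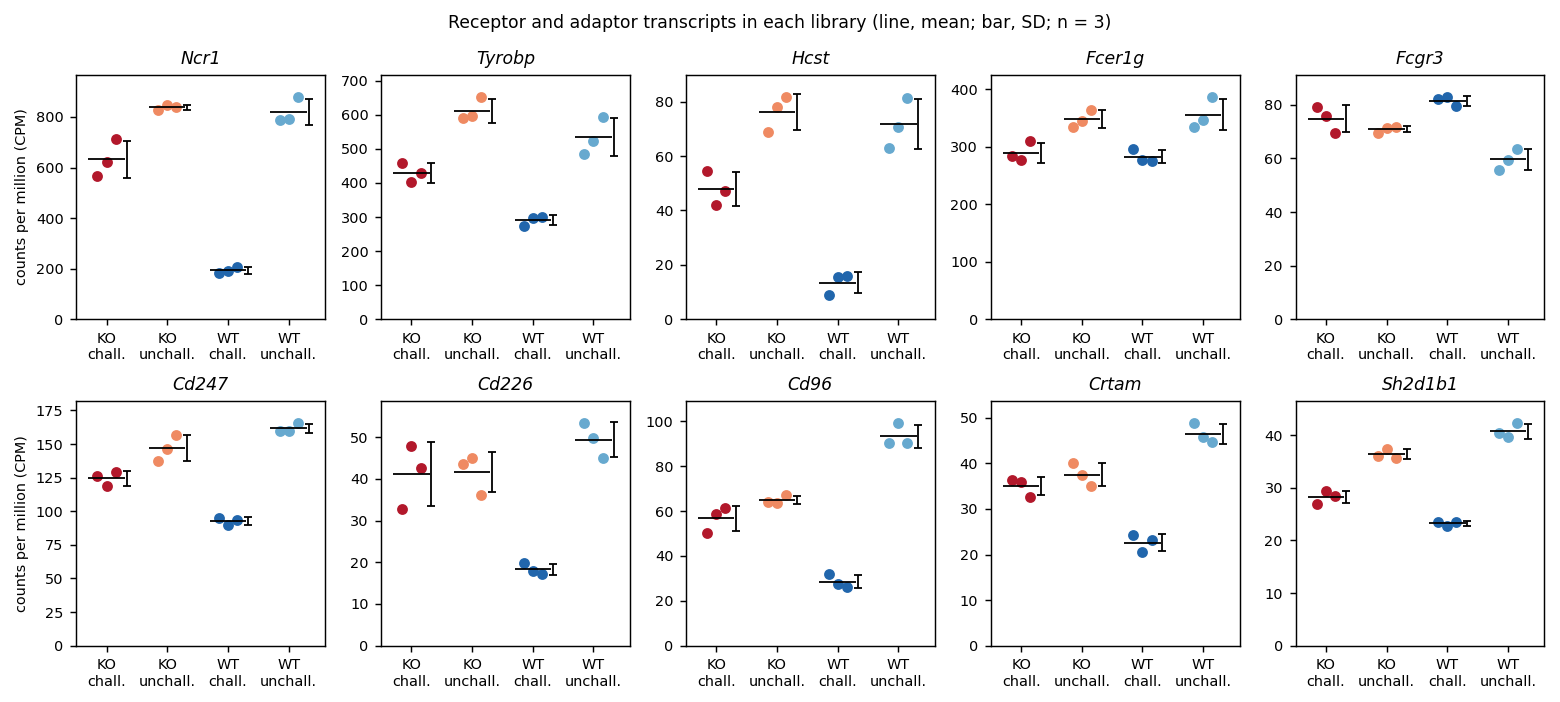
CPM of each of the 10 genes (vertical axis, from 0) in each library, with the group mean as a line and the SD as a bar (n = 3), for challenged KO, unchallenged KO, challenged WT and unchallenged WT. Challenged WT libraries are the lowest for Ncr1 at 182 to 206 CPM and for Hcst at 9.05 to 16.0 CPM, while for Fcgr3 they reach the highest level, 79.4 to 82.96 CPM.

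Ncr1 (ENSMUSG00000062524, chr7:4337724-4345164, plus strand, GRCm38) encodes NKp46, an activating receptor that marks NK cells. It stood at 565, 621 and 712 CPM in challenged KO libraries and at 828, 849 and 840.2 CPM in unchallenged KO libraries. In WT it stood at 182, 192 and 206 CPM after challenge and at 788, 792 and 879.9 CPM without it. The 3 challenged WT libraries lay far below the other 9, the challenged KO libraries lay below both unchallenged groups, and the unchallenged groups overlapped. Challenge changed Ncr1 by -0.42 ± 0.08 in KO (edgeR adjusted p = 0.00133) and by -1.98 ± 0.08 in WT (edgeR adjusted p = 2.44e-11). The responses differed by 1.56 ± 0.12 (edgeR adjusted p = 1.22e-07). KO exceeded WT by 1.62 ± 0.08 after challenge (edgeR adjusted p = 9.44e-10), against 0.05 ± 0.08 without it (edgeR adjusted p = 0.8).

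Among the adaptors, Tyrobp (ENSMUSG00000030579, chr7:30413760-30417585, plus strand) encodes DAP12. Its levels were 459.6, 402 and 429 CPM in challenged KO and 589, 595 and 653 CPM in unchallenged KO libraries. They were 274, 298 and 299.5 CPM in challenged WT and 486, 524 and 595 CPM in unchallenged WT libraries. Challenged WT libraries were the lowest, and challenged KO libraries lay between them and the unchallenged ones of both genotypes. Tyrobp fell by 0.52 ± 0.08 with challenge in KO and by 0.78 ± 0.08 in WT (edgeR adjusted p = 0.000244 and 7.89e-07). After challenge it was higher in KO than in WT by 0.47 ± 0.08 (edgeR adjusted p = 0.00023). The difference between responses was 0.26 ± 0.12 and did not pass (edgeR adjusted p = 0.0975), and it passed at 0.32 under upper-quartile scaling, at 0.37 with library totals, and at 0.32 without challenged KO replicate 2 or without unchallenged WT replicate 2. Without challenge the genotypes differed by 0.21 ± 0.08, which did not pass (edgeR adjusted p = 0.122). It passed at 0.30 without unchallenged WT replicate 4, left out alone or together with challenged KO replicate 3.

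Hcst (ENSMUSG00000064109, chr7:30417712-30419854, minus strand) encodes DAP10 and lies beside Tyrobp, with 126 bases between their facing 3' ends. It stood at 54.5, 42.2 and 47.0 CPM in challenged KO and 68.8, 78.0 and 81.8 CPM in unchallenged KO libraries. It stood at 9.05, 15.6 and 16.0 CPM in challenged WT and 63.0, 70.6 and 81.4 CPM in unchallenged WT libraries. No group overlapped another except the unchallenged ones, and the challenged WT libraries were well below all others. Hcst changed by -0.68 ± 0.18 in KO (edgeR adjusted p = 0.0137) and by -2.30 ± 0.19 in WT (edgeR adjusted p = 5.32e-07), the largest fall of the 10 genes in each genotype. The responses differed by 1.63 ± 0.26 (edgeR adjusted p = 0.000435), and KO exceeded WT after challenge by 1.73 ± 0.19 (edgeR adjusted p = 1.36e-05). The call in KO was lost without challenged KO replicate 2 (-0.58), with no filter on low counts (-0.67) and with the replicate numbers as a block (-0.54). Whether the counting used strand is unknown from these sources, so reads of Tyrobp that run past its end could be counted to Hcst.

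Fcer1g (ENSMUSG00000058715, chr1:171229572-171234365, minus strand) encodes FcR gamma, the chain shared by NKp46, CD16 and NK1.1 and by Fc receptors of myeloid cells. It stood at 284, 277 and 309 CPM in challenged KO and 334, 346 and 365 CPM in unchallenged KO libraries. It stood at 296, 277 and 276 CPM in challenged WT and 335, 346 and 387 CPM in unchallenged WT libraries. The challenged libraries of both genotypes overlapped each other and lay below the unchallenged ones, which also overlapped. Fcer1g fell by 0.27 ± 0.07 in KO and by 0.23 ± 0.07 in WT (edgeR adjusted p = 0.0104 and 0.0115), and the responses differed by -0.04 ± 0.10, which did not pass (edgeR adjusted p = 0.766). KO and WT differed after challenge by -0.06 ± 0.07 (edgeR adjusted p = 0.529), a value of the other sign under upper-quartile scaling (0.017) and with library totals (0.036). The call in WT was lost without unchallenged WT replicate 4 (-0.16), and that in KO without challenged KO replicate 2 (-0.23) or unchallenged KO replicate 4 (-0.24). The summed CPM of 23 myeloid receptors that use FcR gamma or DAP12 was 279.7 to 363.5 CPM in challenged KO and 192.0 to 206.7 CPM in unchallenged KO libraries, against 437.8 to 552.5 CPM in challenged WT and 115.8 to 127.7 CPM in unchallenged WT libraries. It was thus higher in challenged libraries, where Fcer1g and Tyrobp were lower, and its part in the levels of these adaptors was not tested.

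Cd247 (ENSMUSG00000005763, chr1:165788681-165877277, plus strand) encodes CD3 zeta, which serves NKp46 in NK cells and the T cell receptor in T cells. It stood at 126, 119 and 129 CPM in challenged KO and 137, 147 and 157 CPM in unchallenged KO libraries. It stood at 95.0, 89.7 and 93.4 CPM in challenged WT and 159.8, 159.5 and 166 CPM in unchallenged WT libraries. No pair of groups overlapped, and the order was challenged WT, challenged KO, unchallenged KO and unchallenged WT, low to high. Cd247 changed by -0.25 ± 0.06 in KO (edgeR adjusted p = 0.00982) and by -0.70 ± 0.06 in WT (edgeR adjusted p = 1.63e-07), and the responses differed by 0.45 ± 0.09 (edgeR adjusted p = 0.00122). The KO call was lost at -0.20 without challenged KO replicate 2 or unchallenged KO replicate 4. KO exceeded WT after challenge by 0.33 ± 0.06 (edgeR adjusted p = 0.000578).

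Fcgr3 (ENSMUSG00000059498, chr1:171051174-171064935, minus strand) encodes CD16, the low-affinity receptor for IgG that lets NK cells kill antibody-coated cells, and macrophages and neutrophils also carry it. It stood at 79.2, 75.7 and 69.3 CPM in challenged KO and 69.5, 71.4 and 71.6 CPM in unchallenged KO libraries. It stood at 82.1, 82.96 and 79.4 CPM in challenged WT and 55.8, 59.5 and 63.6 CPM in unchallenged WT libraries. Challenged WT libraries were the highest and unchallenged WT libraries the lowest, with both KO groups between them and overlapping. In WT it rose by 0.55 ± 0.07 (edgeR adjusted p = 3.16e-06), in KO it changed by 0.07 ± 0.07 and did not pass (edgeR adjusted p = 0.499), and the responses differed by -0.49 ± 0.09 (edgeR adjusted p = 0.000913).

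Between genotypes, Fcgr3 was higher in unchallenged KO by 0.27 ± 0.07 (edgeR adjusted p = 0.0155), a call lost without unchallenged KO replicate 3 or 4 (0.26 each) and without unchallenged WT replicate 2 (0.22) or 3 (0.28). After challenge it was lower in KO by -0.22 ± 0.07 (edgeR adjusted p = 0.0125), a call lost under upper-quartile scaling (-0.14), with library totals (-0.12), with only the groups compared in the fit (-0.19), and without challenged KO replicate 2 (-0.19) or 3 (-0.17). Neutrophil markers, whose cells also carry CD16, had a summed CPM of 1031 to 1533 in challenged KO and 531 to 551 in unchallenged KO libraries, against 2104 to 2485 in challenged WT and 90.2 to 96.5 in unchallenged WT libraries, with all 14 markers detected in every group. Markers of monocytes and macrophages summed to 1374 to 1705 CPM in challenged KO and 1257 to 1298 CPM in unchallenged KO libraries, against 1829 to 2076 CPM in challenged WT and 1128 to 1160.4 CPM in unchallenged WT libraries. Fcgr3 rose with challenge in WT, whereas its change of 0.07 in KO did not pass (edgeR adjusted p = 0.499). Both sums were higher after challenge in WT and in KO. Single markers went the other way: Ccr2 fell in KO by 0.48 and in WT by 1.36 (edgeR adjusted p = 0.00615 and 1.23e-07), and Camp, Ltf and Ngp fell in KO by 0.77, 0.65 and 0.41 (edgeR adjusted p = 0.00328, 0.0164 and 0.0284). The part of these cells in the rise of Fcgr3 was not tested. Fcgr3 and Fcgr2b, which encodes the inhibitory receptor for IgG, share near-identical sequence, so the counts of either are uncertain. Fcgr2b, named after its values were seen, stood at 93.7 ± 2.89 CPM in challenged KO and 92.0 ± 1.33 CPM in unchallenged KO, against 80.9 ± 6.40 CPM in challenged WT and 86.6 ± 7.18 CPM in unchallenged WT libraries (SD, n = 3 each).

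**Figure D2:**
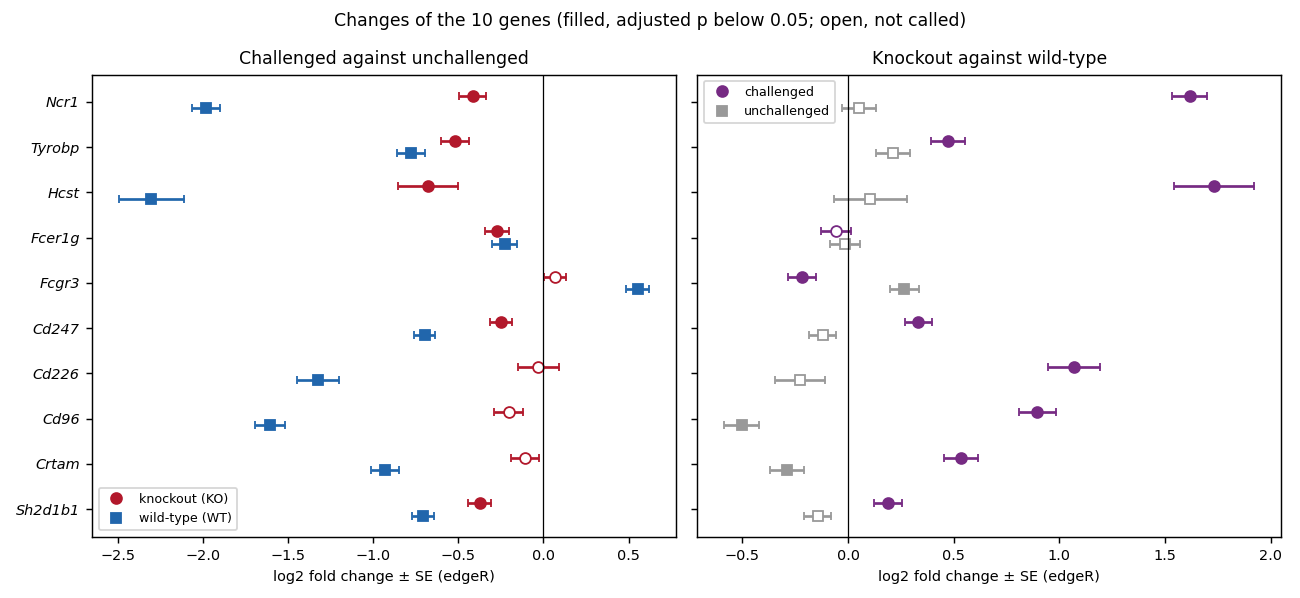
Log2 fold change with its standard error (horizontal axis) for each of the 10 genes, challenged against unchallenged in KO and WT (left) and KO against WT in challenged and unchallenged libraries (right), with filled symbols for calls. In WT, challenge changes run from -2.30 for Hcst to 0.55 for Fcgr3, while in KO they run from -0.68 for Hcst to 0.07 for Fcgr3.

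Receptors of the DNAM family differed between the genotypes in the size of their challenge response. Cd226 (ENSMUSG00000034028, chr18:89176967-89272229, plus strand) encodes DNAM-1, an activating receptor for the nectin-like molecule PVR and for nectin-2. It stood at 32.8, 47.8 and 42.7 CPM in challenged KO and 43.6, 45.1 and 36.1 CPM in unchallenged KO libraries. It stood at 19.8, 17.9 and 17.3 CPM in challenged WT and 53.4, 49.8 and 45.1 CPM in unchallenged WT libraries. Challenged WT libraries lay below all others, and the 2 KO groups overlapped widely. Cd226 fell in WT by 1.33 ± 0.12 (edgeR adjusted p = 1.73e-07), while its change in KO was -0.03 ± 0.12 and did not pass (edgeR adjusted p = 0.892). The responses differed by 1.297 ± 0.17 (edgeR adjusted p = 3.19e-05), and KO exceeded WT after challenge by 1.07 ± 0.12 (edgeR adjusted p = 4.15e-06).

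Cd96 (ENSMUSG00000022657, chr16:46035657-46120251, minus strand) encodes a receptor that competes with DNAM-1 for PVR and is reported to restrain mouse NK cells. It stood at 50.4, 58.5 and 61.3 CPM in challenged KO and 64.1, 63.6 and 67.1 CPM in unchallenged KO libraries. It stood at 31.8, 27.6 and 26.1 CPM in challenged WT and 90.5, 99.2 and 90.2 CPM in unchallenged WT libraries. The WT groups lay at the extremes with the KO groups between them, and no groups overlapped. Cd96 fell by 1.61 ± 0.09 in WT (edgeR adjusted p = 3.46e-10), its change of -0.21 ± 0.08 in KO did not pass (edgeR adjusted p = 0.0853), and the responses differed by 1.40 ± 0.12 (edgeR adjusted p = 4.81e-07). The KO change passed under upper-quartile scaling (-0.25) and without challenged KO replicate 3 (-0.27). Cd96 was lower in KO than in WT without challenge, by -0.50 ± 0.08 (edgeR adjusted p = 0.000663), and higher in KO after it, by 0.90 ± 0.09 (edgeR adjusted p = 6.12e-07).

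Crtam (ENSMUSG00000032021, chr9:40969691-41004628, minus strand) encodes a receptor of activated NK and T cells that binds the nectin-like molecule CADM1. It stood at 36.4, 35.9 and 32.7 CPM in challenged KO and 40.1, 37.5 and 35.1 CPM in unchallenged KO libraries. It stood at 24.3, 20.5 and 23.1 CPM in challenged WT and 48.8, 45.7 and 44.7 CPM in unchallenged WT libraries. As with Cd96, the WT groups enclosed the KO groups, which overlapped each other. Crtam fell by 0.93 ± 0.08 in WT (edgeR adjusted p = 9.64e-08), changed by -0.11 ± 0.08 in KO without passing (edgeR adjusted p = 0.356), and the responses differed by 0.82 ± 0.12 (edgeR adjusted p = 5.7e-05). After challenge KO was higher by 0.53 ± 0.08 (edgeR adjusted p = 7.46e-05). Without challenge it was lower in KO by -0.29 ± 0.08 (edgeR adjusted p = 0.0292), a call lost when any of unchallenged KO replicates 3 and 4 and unchallenged WT replicates 2, 3 and 4 was left out (-0.31 to -0.24).

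Tigit and several ligands of this axis rose with challenge in WT, whereas Pvrig fell. Of 8 genes tested, 6 rose and 1 fell with challenge in WT (median 1.07, against -0.01 over all genes), while 2 rose and 1 fell in KO (median 0.17, against -0.01 over all genes). Among all tested genes, 32.4% were called higher and 30.9% lower in WT, and 15.6% higher and 11.5% lower in KO. Tigit, an inhibitory receptor for PVR, stood at 22.1 ± 3.43 CPM in challenged KO and 17.6 ± 1.96 CPM in unchallenged KO libraries, against 53.2 ± 2.41 CPM in challenged WT and 17.7 ± 1.66 CPM in unchallenged WT libraries (SD, n = 3 each). It rose by 0.32 ± 0.11 in KO and by 1.69 ± 0.11 in WT (edgeR adjusted p = 0.048 and 3.99e-09), and the responses differed by -1.37 ± 0.16 (edgeR adjusted p = 1.02e-05). Pvr, which encodes the ligand that DNAM-1, CD96 and TIGIT share, rose by 0.89 ± 0.09 in WT (edgeR adjusted p = 7.97e-07), where it reached 21.7 ± 0.467 CPM, and stood at 12.3 ± 0.523 CPM in challenged KO libraries. Nectin1, a ligand of mouse CD96, rose by 2.30 ± 0.16 in WT (edgeR adjusted p = 9.01e-09) to 10.5 ± 1.11 CPM, against 4.23 ± 0.344 CPM in challenged KO libraries. After challenge 6 of the 8 genes were lower in KO than in WT and the other 2 did not pass. Of all tested genes, 25.9% were called lower in that comparison. Cadm1, the ligand of CRTAM, rose in KO by 0.66 ± 0.18 (edgeR adjusted p = 0.0137). Its mean level was higher after challenge in WT as well. It stood at 8.17 CPM in challenged and 5.136 CPM in unchallenged KO libraries, against 8.01 and 4.976 CPM in WT. Pvrig, an inhibitory receptor for nectin-2, fell in KO by 0.52 ± 0.09 and in WT by 0.28 ± 0.09 (edgeR adjusted p = 0.000449 and 0.0129).

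Sh2d1b1 (ENSMUSG00000102418, chr1:170277320-170286769, plus strand) encodes EAT-2, an adaptor of SLAM-family receptors. It stood at 27.0, 29.4 and 28.5 CPM in challenged KO and 36.1, 37.4 and 35.8 CPM in unchallenged KO libraries. It stood at 23.6, 22.7 and 23.5 CPM in challenged WT and 40.4, 39.6 and 42.3 CPM in unchallenged WT libraries. No groups overlapped, and the spread within each group was small. Sh2d1b1 fell by 0.38 ± 0.07 in KO and by 0.71 ± 0.07 in WT (edgeR adjusted p = 0.000547 and 1.73e-07), and the responses differed by 0.33 ± 0.09 (edgeR adjusted p = 0.0113), a call lost at 0.29 when unchallenged WT replicate 4 and challenged KO replicate 3 were both left out. KO exceeded WT after challenge by 0.19 ± 0.07 (edgeR adjusted p = 0.029), a call lost in 8 of 21 alternative settings, among them the DESeq2 test (0.18) and the fits without challenged KO replicate 3 (0.17), challenged WT replicate 2 (0.17) or challenged WT replicate 3 (0.19).

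The genes that EAT-2 works with were measured beside it. Sh2d1b2, a paralog 23711 bases away on the same strand with which reads may be shared, rose in WT by 0.75 ± 0.13 (edgeR adjusted p = 0.000104), the direction opposite to that of Sh2d1b1, and stood at 12.8 ± 0.683 CPM in challenged WT against 8.19 ± 1.18 CPM in unchallenged WT libraries. In KO, Sh2d1b2 stood at 5.75 ± 0.274 CPM after challenge and 4.45 ± 0.623 CPM without it. It was lower in KO than in WT by -0.86 ± 0.14 without challenge and by -1.24 ± 0.13 after it (edgeR adjusted p = 0.00052 and 1.38e-06). The part of shared reads in the levels of Sh2d1b1 was not tested. Of 10 SAP-family and SLAM genes tested, 3 rose and 3 fell with challenge in KO, and 3 rose and 6 fell in WT (medians -0.13 and -0.38, against -0.01 over all genes in each). Among all tested genes, 15.6% were called higher and 11.5% lower in KO, and 32.4% higher and 30.9% lower in WT. Cd244, which encodes the SLAM receptor 2B4, changed by -0.54 ± 0.05 in KO and by -1.301 ± 0.05 in WT (edgeR adjusted p = 2.89e-06 and 1.98e-11). Sh2d1a, which encodes SAP, fell by 0.43 ± 0.09 and 0.93 ± 0.09 in the same order (edgeR adjusted p = 0.00181 and 2.32e-07). Slamf8, a SLAM gene of myeloid cells, rose by 1.63 ± 0.16 in KO and by 3.38 ± 0.16 in WT (edgeR adjusted p = 2.32e-06 and 9.36e-11).

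**Figure D3:**
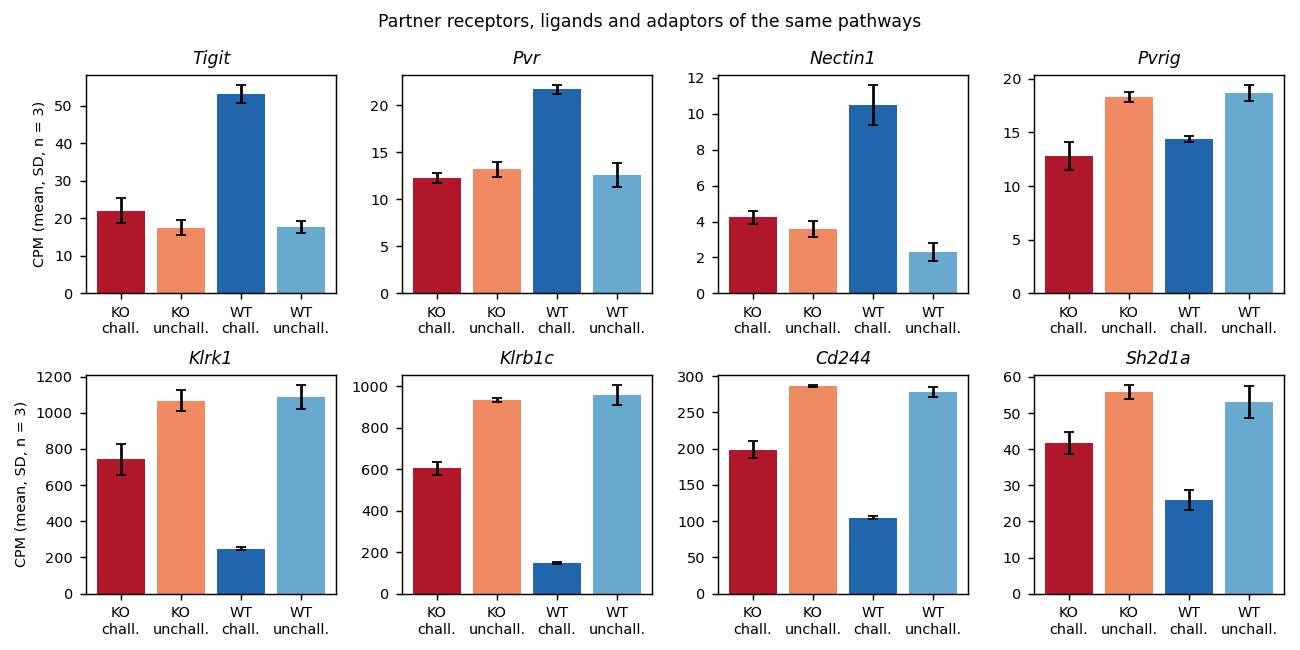
Mean CPM (bars, from 0) with SD (n = 3) of receptors, ligands and adaptors that work with the 10 genes, in challenged KO, unchallenged KO, challenged WT and unchallenged WT libraries. Tigit, Pvr and Nectin1 are highest in challenged WT libraries, at 53.2, 21.7 and 10.5 CPM, while Klrk1, Klrb1c, Cd244 and Sh2d1a are lowest there.

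Receptors of NK cells that use these adaptors fell with them. Of 7 such genes, 5 fell with challenge in KO and all 7 fell in WT (medians -0.54 and -2.12), and after challenge all 7 were higher in KO than in WT (median 1.497). Without challenge their median difference between genotypes was -0.03. Over all tested genes, the medians of these comparisons lay between -0.01 and 0.00. Among those genes, 11.5% were called lower with challenge in KO and 30.9% in WT. After challenge 22.7% of them were called higher in KO than in WT. Klrk1, which encodes NKG2D, the receptor that DAP10 serves, stood at 742 ± 84.1 CPM in challenged KO and 1067 ± 59.6 CPM in unchallenged KO libraries, against 248.8 ± 7.19 CPM in challenged WT and 1087 ± 65.1 CPM in unchallenged WT libraries (SD, n = 3 each). Klrb1c, which encodes NK1.1, a partner of FcR gamma, changed by -0.64 ± 0.06 in KO and by -2.60 ± 0.06 in WT (edgeR adjusted p = 1.56e-06 and 3.25e-13). Of these 7 genes, 5 also stand among the NK cell markers summed above.

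The myeloid partners of FcR gamma and DAP12 moved the other way. Of 21 tested, 12 rose and 2 fell in KO and 18 rose and 2 fell in WT (medians 0.50 and 1.51, against -0.01 over all genes in each). Over all tested genes, 15.6% were called higher in KO and 32.4% in WT. Fcgr4, an activating receptor for IgG, rose by 2.03 ± 0.13 in KO and by 3.93 ± 0.14 in WT (edgeR adjusted p = 2.94e-08 and 5.25e-12), and Clec4d, a lectin of phagocytes, by 3.09 ± 0.16 and 4.49 ± 0.17 in the same order (edgeR adjusted p = 3.45e-09 and 9.08e-12). Siglech, of plasmacytoid dendritic cells, fell by 0.74 ± 0.10 in KO and by 3.81 ± 0.14 in WT (edgeR adjusted p = 4.29e-05 and 5.32e-12).

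The T cell partners of CD3 zeta divided by genotype. Of 12 genes of the T cell receptor complex and its coreceptors, 10 rose and 2 fell with challenge in KO, whereas 10 fell and 2 did not pass in WT (medians 0.47 and -0.51, against -0.01 over all genes in each). Over all tested genes, 15.6% were called higher and 11.5% lower in KO, and 30.9% lower in WT. The difference between responses was called positive for all 12 (median 1.03, against 0.00 over all genes), where 16.7% of all tested genes were. Cd3g, a chain of the CD3 complex, rose in KO by 0.79 ± 0.09 (edgeR adjusted p = 8.96e-06), and Cd8b1, a chain of the CD8 coreceptor, fell in WT by 0.94 ± 0.10 (edgeR adjusted p = 5.08e-07). Trdc, the constant segment of the T cell receptor delta chain, fell by 0.25 ± 0.09 in KO and by 1.67 ± 0.09 in WT (edgeR adjusted p = 0.0474 and 4.54e-10). The summed CPM of 11 T cell markers was 379.4 to 421.2 CPM in challenged KO and 298.6 to 306.7 CPM in unchallenged KO libraries, against 239.9 to 251.1 CPM in challenged WT and 382.7 to 423.1 CPM in unchallenged WT libraries. In KO, Cd247 fell, as did Trdc and Trbc1, a constant segment of the T cell receptor beta chain, at -0.45 ± 0.06 (edgeR adjusted p = 6.97e-05).

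**Figure D4:**
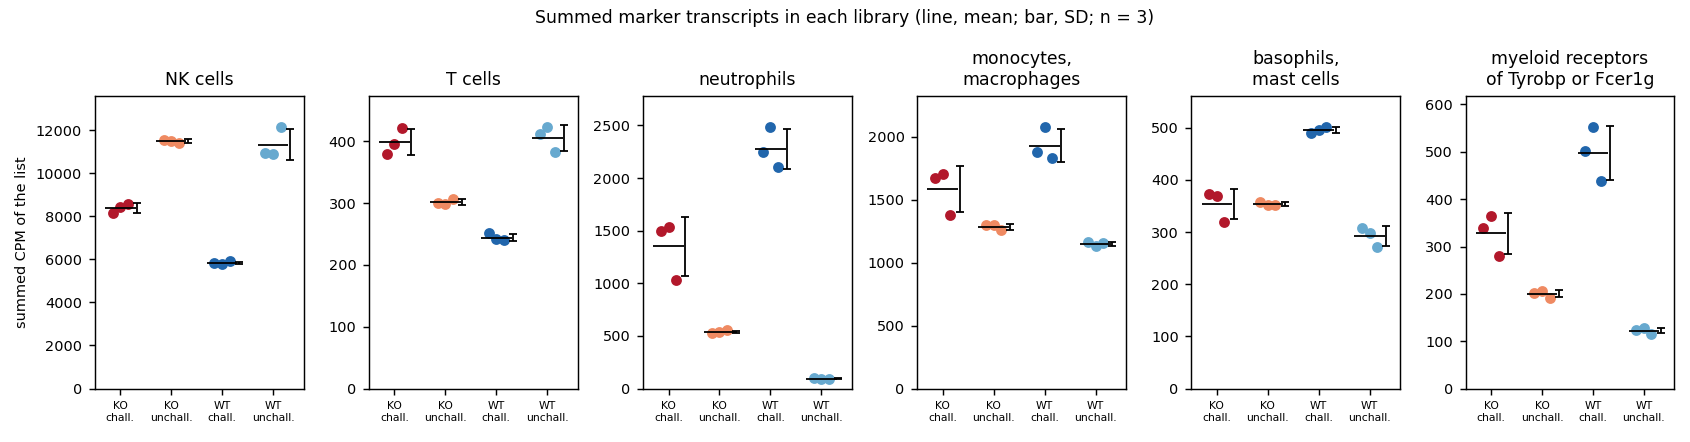
Summed CPM (vertical axis, from 0) of marker lists of NK cells, T cells, neutrophils, monocytes and macrophages, basophils and mast cells, and of myeloid receptors that use DAP12 or FcR gamma, in each library, with group mean (line) and SD (bar, n = 3). Neutrophil markers reach 2104 to 2485 CPM in challenged WT libraries, against 90.2 to 96.5 CPM in unchallenged WT libraries, while NK cell markers are lowest in challenged WT.

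Signalling genes downstream of the adaptors moved in both directions. Of 37 tested, 9 rose and 10 fell with challenge in KO, and 14 rose and 18 fell in WT (medians 0.00 and -0.09, against -0.01 over all genes in each). Among all tested genes, 15.6% were called higher and 11.5% lower in KO, and 32.4% higher and 30.9% lower in WT. Fyn, a kinase that phosphorylates ITAM motifs, changed by -0.42 ± 0.06 in KO and by -1.123 ± 0.06 in WT (edgeR adjusted p = 7.58e-05 and 2.47e-10). Txk, a TEC-family kinase that also counts among the NK cell markers, fell by 0.46 ± 0.05 in KO and by 1.20 ± 0.05 in WT (edgeR adjusted p = 7.6e-06 and 2.64e-11). Btk and Lyn, kinases of B cells and myeloid cells, rose in KO by 0.54 ± 0.07 and 0.37 ± 0.05 (edgeR adjusted p = 2.86e-05 and 0.000119) and in WT by 0.79 ± 0.07 and 0.59 ± 0.05 (edgeR adjusted p = 6.22e-08 and 1.32e-07). Of 16 phosphatases, ubiquitin ligases and docking proteins that dampen the cascade, 1 rose and 5 fell in KO and 3 rose and 7 fell in WT (medians -0.06 and -0.10, against -0.01 over all genes in each), where 27.0% and 63.4% of all tested genes were called. Cbl, a ubiquitin ligase for activated kinases, was among those that fell, by 0.35 ± 0.05 in KO and 1.13 ± 0.06 in WT (edgeR adjusted p = 0.000229 and 1.28e-10). Ptpn6, which encodes the phosphatase SHP-1, rose by 0.28 ± 0.06 in KO and 0.38 ± 0.06 in WT (edgeR adjusted p = 0.00487 and 0.000106).

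Ratios between 2 genes within a library need no scaling of library sizes. They set a receptor beside an adaptor that it uses, an adaptor beside another adaptor, or a receptor beside another receptor. The log2 ratio of Ncr1 to Fcer1g counts was 0.99, 1.17 and 1.20 in challenged KO and 1.31, 1.296 and 1.20 in unchallenged KO libraries. In WT it was -0.70, -0.53 and -0.42 after challenge and 1.23, 1.20 and 1.19 without it. Challenged WT libraries alone held fewer counts of Ncr1 than of Fcer1g. The log2 ratio of Hcst to Tyrobp averaged -3.17 in challenged KO and -3.01 in unchallenged KO libraries, against -4.47 in challenged WT and -2.90 in unchallenged WT libraries, so the DAP10 transcript lost more than the DAP12 transcript in WT. Fcer1g to Tyrobp averaged -0.57 and -0.81 in challenged and unchallenged KO and -0.04 and -0.59 in challenged and unchallenged WT libraries, and Fcer1g to Cd247 averaged 1.22, 1.25, 1.61 and 1.14 in the same order. The WT groups did not overlap for any of these 4 ratios. Each of the 32 comparisons of 8 ratios was tested by a two-sided exact permutation test, whose smallest possible p with 3 against 3 libraries is 0.1, and no adjusted p was below 0.16, so none could pass. Cd226 to Cd96, receptors with a shared ligand, averaged -0.48 and -0.65 in challenged and unchallenged KO and -0.64 and -0.92 in challenged and unchallenged WT libraries.

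**Figure D5:**
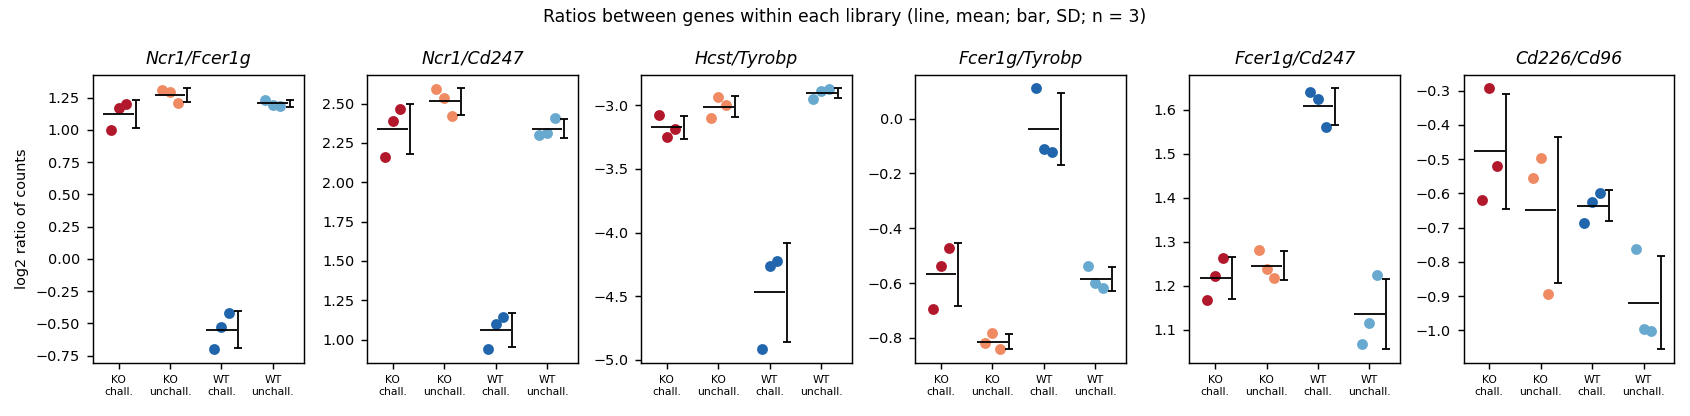
Log2 ratio of counts (vertical axis) of 6 gene pairs in each library, with group mean (line) and SD (bar, n = 3). For Ncr1 to Fcer1g and for Hcst to Tyrobp the challenged WT libraries stand apart below all others, with means of -0.55 and -4.47, while for Fcer1g to Tyrobp and Fcer1g to Cd247 they stand above, with means of -0.04 and 1.61.

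Levels of different genes were compared as mean CPM per kilobase of the longest principal transcript. In unchallenged WT libraries Tyrobp led at 948 ± 97.9 CPM per kilobase, followed by Ncr1 at 561 ± 35.5 and Fcer1g at 528 ± 40.8, which overlapped. Hcst at 162 ± 21.0, Cd247 at 99.1 ± 2.11, Fcgr3 at 44.3 ± 2.87 and Cd96 at 42.7 ± 2.34 came next, the last 2 overlapping. Sh2d1b1 at 16.0 ± 0.548, Cd226 at 10.99 ± 0.927 and Crtam at 9.28 ± 0.432 CPM per kilobase were the lowest. In challenged WT libraries Fcer1g at 419.5 ± 17.2 lay above Ncr1 at 132 ± 8.27 CPM per kilobase, and Hcst at 30.6 ± 8.81 lay below Fcgr3 at 60.5 ± 1.37 and Cd247 at 56.8 ± 1.66. In challenged KO libraries the order was that of unchallenged WT, with Ncr1 at 433 ± 50.5 and Fcer1g at 430.1 ± 25.5 CPM per kilobase overlapping, as did Sh2d1b1 at 11.1 ± 0.471 and Cd226 at 9.15 ± 1.70.

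The 4 genes with a microRNA site were compared with the 6 without one as a description. Without challenge, log2 changes of KO against WT were 0.05 for Ncr1, -0.29 for Crtam, -0.23 for Cd226 and -0.14 for Sh2d1b1, of which Crtam alone was called, and lower. The 6 genes without a site ran from -0.50 for Cd96 to 0.27 for Fcgr3. After challenge all 4 with a site were higher in KO, by 0.19 to 1.62, as were Tyrobp, Hcst, Cd247 and Cd96 among those without one, by 0.33 to 1.73.

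Likeness was measured as the root mean square difference of centred log2 CPM over the 12 libraries, among 11202 tested genes with at least 5 CPM on average. Within the set, Cd247 and Sh2d1b1 were the closest pair at 0.09, and Hcst and Fcgr3 the farthest at 1.17. Cd226 was closest to Cd96 at 0.20, and Ncr1 was closest to Hcst at 0.27, while Tyrobp and Hcst, neighbours on chromosome 7, differed by 0.65. Outside the set, Ncr1 was nearest to Mxd4, Arl4c and Pogk (0.09, 0.09 and 0.10), Cd247 to Dock2, Dguok and Ercc4 (0.03, 0.04 and 0.05), and Cd96 to Fam214a, Lef1 and Prkca (0.12, 0.13 and 0.14). Fcer1g was nearest to Cd52, Rapgef2 and Npc1 (0.06, 0.06 and 0.07), and Sh2d1b1 to Peak1, Dnajc1 and Rasgrp1 (0.05, 0.07 and 0.07).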

How the data were processed

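Reads were processed by the authors before deposit, on the GRCm38 genome, with RSEM 1.3.0 and Bowtie2 2.2.8 after bcl2fastq and Trim Galore 0.4.1, per the submitters' processing notes. Polyadenylated RNA was extracted with Trizol and used for Illumina TruSeq RNA libraries, per the labels' protocols. The values deposited by the authors are counts per gene and library, as whole numbers without normalization. RSEM gives estimated counts, and the sources used here do not say how they were rounded, which annotation was used or whether strand was. Reads carry no molecular identifiers.

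Genes were filtered with filterByExpr of edgeR 4.0.16 (R 4.3.3) over the 4 groups. All 12 libraries were scaled by TMM and fitted together, 1 term for each group, with the robust quasi-likelihood F test. Benjamini-Hochberg adjustment ran over all tested genes within each of 5 comparisons. CPM were computed from library totals, without TMM. Standard errors came from the log2 fold change and its F statistic. A comparison of libraries within groups found none that differed by counting noise alone. The test was checked on simulated data in which 200 genes were changed, in challenged WT libraries only. For challenge in WT it called 70% of those changed by 1 on the log2 scale and 90% of those changed by 2, with 3 false calls. Smaller changes were not simulated. Other tools were limma 3.58.1, DESeq2 1.42.0, Python 3.11.15, pandas 2.3.3 and matplotlib 3.10.9.

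The genes, lists and tests were chosen with earlier results of these data known. From each other list, up to 3 genes per direction and comparison were named, by smallest p among calls that reached 5 CPM in the higher group, and for each of the 10 genes the 3 nearest in pattern. Positions and 3' UTRs came from a GENCODE annotation of GRCm38. Alternatives comprised other scalings, filters, tools and fits, the replicate block and leaving out each library. Same-numbered libraries were not taken as pairs.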

Additional observations from a re-analysis of the deposited data

Results flagged for a closer look

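In 8 of the 10 genes the challenge response differed between the genotypes by the test of the difference itself (edgeR, KO response minus WT response, on the log2 scale, with KO and WT changes each over 3 challenged and 3 unchallenged libraries). The difference was 1.56 for Ncr1, 1.63 for Hcst, 1.297 for Cd226, 1.40 for Cd96 and 0.82 for Crtam, where the WT fall was larger than any KO change. It was 0.45 for Cd247 and 0.33 for Sh2d1b1, which fell in both genotypes. For Fcgr3 it was -0.49, with a rise called in WT and a KO change that did not pass. Tyrobp (0.26) and Fcer1g (-0.04) did not pass. By the same test, 35.2% of all tested genes were called. The challenged KO libraries carried Xist and Y-linked transcripts together, and the part of that in these differences was not tested.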

How the results depend on the processing

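Alternatives were other scalings (size factors of DESeq2, upper quartile, library totals), other filters, the DESeq2 test, a fit of only the groups compared, the replicate numbers as a block, and each library left out. Of the 10 genes, the number called moved by over 1.5 times only when 1 library was left out: it was 3 to 7 for challenge in KO, lowest at 3 without challenged KO replicate 2 and 4 without unchallenged KO replicate 4, and 1 to 3 between genotypes without challenge, with 1 without unchallenged KO replicate 3 or 4 or unchallenged WT replicate 2 or 3. With the replicate block, 5, 10, 3, 8 and 8 genes were called for challenge in KO, challenge in WT, KO against WT without challenge, the same after challenge, and the difference between responses. The block used the leading replicate number of the titles. Residuals of libraries that share it correlated at -0.317 to 0.249, so it was not taken to pair samples. Pairing by the second number in the titles was not tested.

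Among the 10 genes, signs turned only for changes that did not pass. With 1 library left out, Cd226 in KO ranged from -0.133 to 0.104, being positive without challenged KO replicate 1 and, at 0.0018 and 0.036, without unchallenged KO replicates 2 and 3. Fcer1g ranged from -0.057 to 0.055 between unchallenged genotypes, from -0.115 to 0.0078 between challenged ones and from -0.113 to 0.0070 for the difference between responses. Its value between unchallenged genotypes was 4.93e-05 with only the groups compared and 0.055 without unchallenged WT replicate 4 and challenged KO replicate 3 together. Under upper-quartile scaling and with library totals it was 0.017 and 0.036 between challenged genotypes and 0.017 and 0.068 for the difference between responses. Upper-quartile scaling and library totals shifted the median of all genes in the WT challenge comparison by -0.11 and -0.10, and library totals that of the difference between responses by 0.11. The depth left every one of the 10 genes above the filter.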

Other observations

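The Fc receptor genes beside Fcgr3 were looked at after their values were seen. Fcgr1, the high-affinity receptor for IgG and a marker of monocytes and macrophages, stood at 11.2 ± 1.90 CPM in challenged KO and 2.88 ± 0.275 CPM in unchallenged KO, against 23.6 ± 2.56 CPM in challenged WT and 1.65 ± 0.521 CPM in unchallenged WT libraries (SD, n = 3 each). Fcgr4 stood at 26.9 ± 5.13, 6.52 ± 0.463, 50.7 ± 4.25 and 3.57 ± 0.312 CPM in the same order. Both were above their unchallenged levels in every challenged library of the same genotype, and Fcgr2b was not called in WT (log2 0.01, edgeR adjusted p = 0.956). Among them, Fcgr3 rose by 0.55 in WT, whereas Fcgr1 and Fcgr4 rose by 3.93 each on the log2 scale (edgeR).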
